A study of Homo sapiens with 24 samples.

Results

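T/C-28a2 chondrocytes that lack WNK2 were kept for 7 days in medium with 100 mM added sorbitol, and their transcriptome was compared with that of the same cells in isotonic medium. The comparison held 8 of the 24 libraries analysed here: 4 labelled WNK2- Sor (400 mOsm) and 4 labelled WNK2- Ctr (300 mOsm). Members were chosen by genotype and treatment in the labels alone. All groups shared the same cell line and base medium (DMEM with serum). T/C-28a2 is an immortalised human costal chondrocyte line. The WNK2- cells are a clonal line in which CRISPR/Cas9 removed exon 2 of WNK2, so that every WNK2- value comes from 1 clone, and the labels give neither WNK2- group a transfection. The other libraries hold wild-type cells (WT Ctr and WT Sor) and cells transfected with WNK2 (WNK2 trans Ctr and WNK2 trans Sor), each with 4 libraries. They were fitted together with the WNK2- libraries, and so also set the filter, the scaling and the spread behind the p-values. Beyond that they serve to set the WNK2- response beside another genotype. The study's methods call the 4 libraries of a group biological replicates. No label ties a replicate number to a culture or batch. The p-values therefore measure the spread between libraries of a group, estimated over all 24 libraries.

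The WNK2- Ctr libraries held 20441364 to 22461641 counted reads and the WNK2- Sor libraries 18578564 to 25664619, and the means did not differ detectably (exact two-sided permutation test, p = 0.9714, where the smallest p that 4 against 4 libraries allow is 0.0286). Mitochondrially encoded genes took 3.22% to 3.39% of the control counts and 3.16% to 3.49% of those with sorbitol. WNK2 itself (chr9:93184916-93320572, plus strand, GRCh38) had 417, 404, 388 and 417 normalized counts in WNK2- Ctr and 340.1, 419, 311 and 367 in WNK2- Sor. The groups overlapped (log2 fold change -0.18 ± 0.20 SE, adjusted p = 0.626). Reads from a transcript without exon 2 are still counted on the gene, so that this count does not check the deletion. In the other isotonic groups WNK2 went against the labels: WT Ctr held 1217 to 2568 raw counts of it and WNK2 trans Ctr 163 to 290. In the other sorbitol groups it followed the labels, at 266 to 314 in WT Sor and 2237 to 3739 in WNK2 trans Sor. WT Ctr and WT Sor therefore stand below for the libraries so labelled, and each wild-type change and interaction named was also tested with WNK2 trans Ctr in place of WT Ctr. The 12 pairs of replicates within the WNK2- groups differed by 3.57 to 24.6 times the counting error (chi-square per degree of freedom), so that no library was a copy of another.

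Cartilage lives in a medium whose osmolarity follows load, since water leaves the matrix on compression and returns afterwards. Cells in hypertonic medium lose water, and then regain volume through ion uptake and, over hours to days, by making or importing small organic osmolytes such as sorbitol, betaine, taurine and myo-inositol. NFAT5, the tonicity-responsive transcription factor, drives the genes for these steps. The WNK kinases sense chloride and cell volume, and act through the kinases SPAK (STK39) and OSR1 (OXSR1) on cation-chloride cotransporters. The question of the comparison was what chronic hyperosmotic stress does to gene expression in chondrocytes without WNK2.

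Sorbitol changed a broad set of genes, and the largest rises were larger than the largest falls. Of 16600 genes with enough reads to be tested, 2473 passed an adjusted p of 0.05 in edgeR's quasi-likelihood test, which is 14.9% of the genes tested. These are the genes termed called below. Of them 1370 rose (8.25% of genes tested) and 1103 fell (6.64%). The change was at least 2-fold for 548 of the risen and 134 of the fallen genes. In 2406 of the 2473 called genes the 4 WNK2- Sor libraries did not overlap the 4 WNK2- Ctr libraries; over all genes tested 28.4% did not overlap, in either direction. On the first principal component of the 500 most variable genes, which held 72.3% of their variance, WNK2- Ctr libraries lay between -20.9 and -18.3 and WNK2- Sor libraries between 17.6 and 21.3. In these bulk libraries, fewer cells that make a transcript and less of it per cell cannot be told apart.

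**Figure D1:**
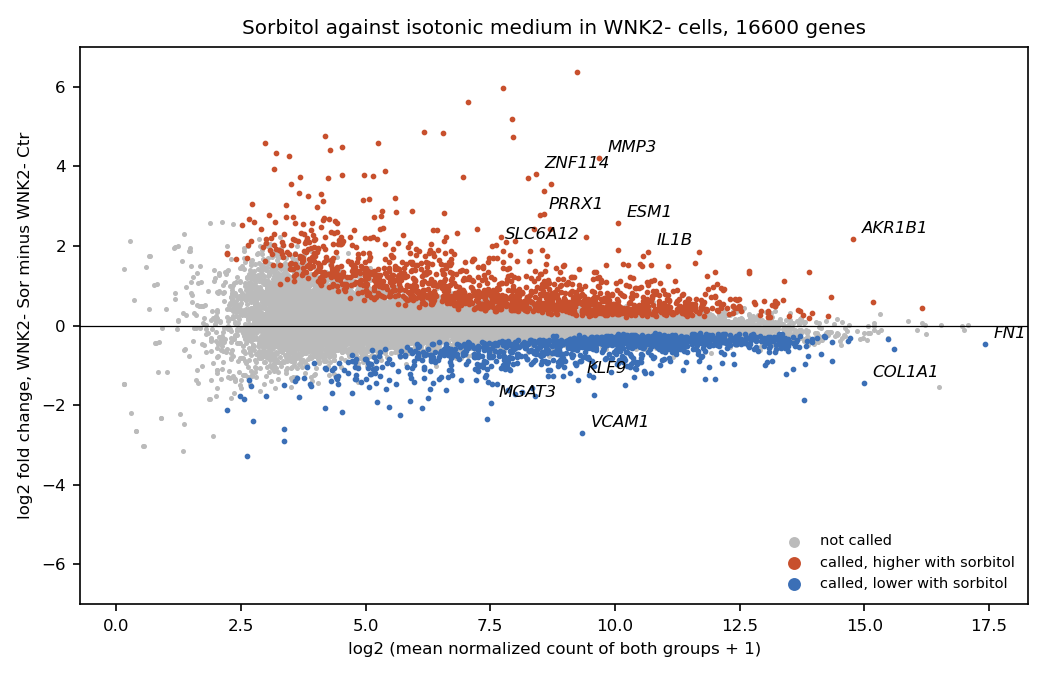
Log2 fold change (WNK2- Sor minus WNK2- Ctr) of each of the 16600 genes tested against the log2 of its mean normalized count, with called genes coloured by direction. MMP3, ZNF114 and PRRX1 lie far above 0 and VCAM1 far below it, while AKR1B1 and COL1A1 combine large changes with high counts; unlabelled points above MMP3 are genes outside the naming rule.

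The genes for the sorbitol-making enzyme and a betaine transporter rose. Of 15 tested genes for osmolyte uptake, sorbitol metabolism and the tonicity response, 6 rose and 0 fell, and the median log2 fold change was 0.31 against 0.00 over all genes tested. AKR1B1 (chr7:134442350-134459284, minus strand), the aldose reductase that reduces glucose to sorbitol, had 10976, 10323, 10101 and 9440.4 normalized counts in WNK2- Ctr and 46576, 45522, 45316 and 46406 in WNK2- Sor (log2 fold change 2.17 ± 0.11 SE, adjusted p = 5.61e-13). All 4 sorbitol libraries lay above all 4 controls, and the mean was 4.50 times as high. SLC6A12, the betaine and GABA transporter, had 81.5, 72.1, 93.1 and 63.3 normalized counts in WNK2- Ctr and 337, 333, 304 and 287 in WNK2- Sor (log2 fold change 2.02 ± 0.23 SE, adjusted p = 5.56e-07). It started from a count more than 100 times below that of AKR1B1 on the same scale of reads, which does not correct for transcript length, and its groups also did not overlap.

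S100A4, a calcium-binding protein, rose from 48.3, 52.0, 60.3 and 48.3 to 107, 122, 119 and 102 normalized counts (log2 fold change 1.10 ± 0.27 SE, adjusted p = 0.00542). SGK1, the serum- and glucocorticoid-regulated kinase that acts on ion channels and transporters, rose from 2671, 2711, 2560.2 and 2621 to 4253, 3852, 4243 and 4170.1 (log2 fold change 0.65 ± 0.08 SE, adjusted p = 1.59e-06). Neither gene's groups overlapped. The 2 other risen members act on glycerophosphocholine, another osmolyte: GDPD5, which breaks it down, had a log2 fold change of 0.39, adjusted p = 0.0396, and PNPLA6, which makes it, one of 0.31, adjusted p = 0.0403. Both calls were weak: that of GDPD5 was lost in 7 of the 8 fits that left out 1 WNK2- library (adjusted p 0.0341 to 0.132), and that of PNPLA6 was lost in 7 of the 8 fits that left out 1 WNK2- library (adjusted p 0.0391 to 0.127).

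NFAT5 itself was not called: it had 2186, 3322, 4083 and 3539 normalized counts in WNK2- Ctr and 4444, 3418, 4251 and 3724 in WNK2- Sor (log2 fold change 0.27 ± 0.26 SE, adjusted p = 0.564), and the groups overlapped. SLC6A6, the taurine transporter, had a log2 fold change of -0.02, adjusted p = 0.937, SORD, which oxidises sorbitol to fructose, one of -0.03, adjusted p = 0.9, and SLC38A2, an amino acid transporter, one of 0.31, adjusted p = 0.0918. SLC38A2 was called when the 8 WNK2- libraries were fitted alone (adjusted p = 0.0095), with the GC and length correction (0.000875) and without WNK2- Sor replicate 2 (0.0469). Thus the gene for the sorbitol-making enzyme was higher with sorbitol in the medium, whereas the measured difference for the sorbitol-oxidising enzyme lay within the spread of its replicates. SLC5A3, the myo-inositol transporter, is listed at 0 in every library, as are SOX9, MMP1, CCN2 and ITGA5, and nothing can be said of these genes here.

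**Figure D2:**
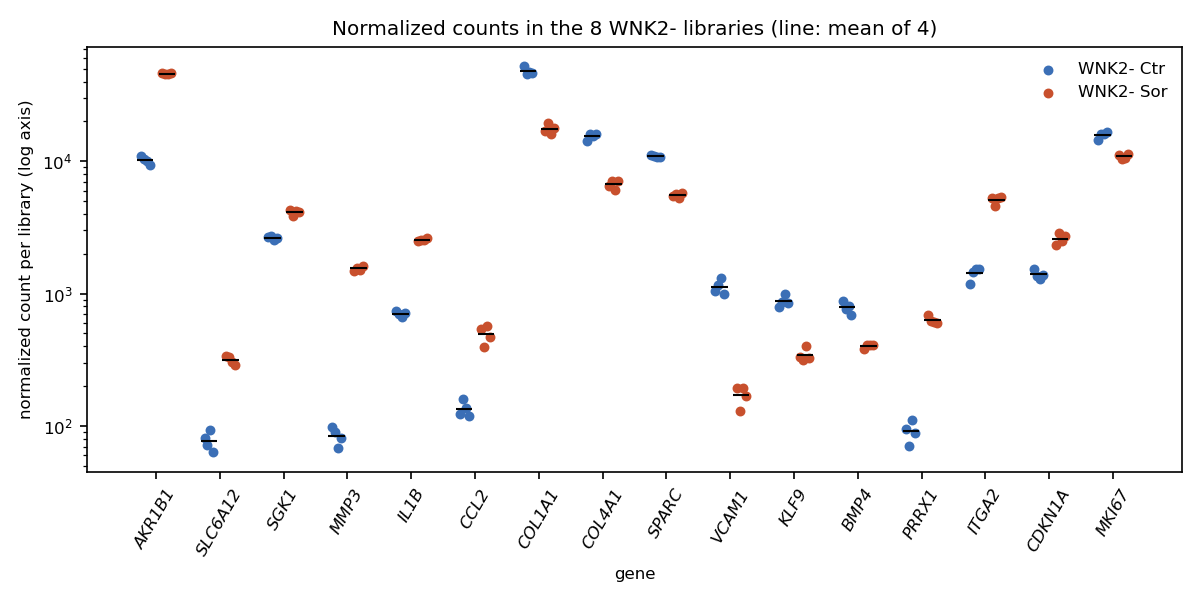
Normalized counts (log axis) of 16 genes in each WNK2- library, with 4 points a group and a line at the group mean. In each of the 16 genes the WNK2- Sor points lie wholly above or wholly below the WNK2- Ctr points.

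The list of WNK kinases, SPAK/OSR1 and cation-chloride cotransporters also held the ubiquitin ligase gene NEDD4L. Of its 16 tested genes, 3 rose, NEDD4L among them, and 0 fell, or 18.8% called against 14.9% of all genes tested (median log2 fold change 0.11). With the GC and length correction 5 rose and 0 fell, and 5 rose and 1 fell when the 8 WNK2- libraries were fitted alone. WNK4 had 575, 569, 594 and 609.8 normalized counts in WNK2- Ctr and 771, 842, 772 and 800.2 in WNK2- Sor (log2 fold change 0.44 ± 0.12 SE, adjusted p = 0.0132), with no overlap between the groups; 16% of its exons overlap another gene, whose reads cannot be told apart without strand. NEDD4L, a ubiquitin ligase that removes the sodium channel ENaC from the membrane, rose from 3197, 3213, 3189 and 3269 to 6280.4, 5708, 6179.6 and 6041 (log2 fold change 0.91 ± 0.11 SE, adjusted p = 1.05e-06). The remaining kinases were not called: WNK1 had a log2 fold change of 0.09, adjusted p = 0.726, WNK3 0.28, adjusted p = 0.261, STK39 0.22, adjusted p = 0.147 and OXSR1 -0.08, adjusted p = 0.636. SLC12A2, the sodium-potassium-chloride cotransporter NKCC1 that brings in ions during volume recovery, had 984, 1141, 1171 and 1207 normalized counts in WNK2- Ctr and 1521, 1198, 1488 and 1435 in WNK2- Sor (log2 fold change 0.33 ± 0.16 SE, adjusted p = 0.189), and its groups overlapped through 1 WNK2- Sor library at 1198. It was called with the 8 libraries fitted alone (adjusted p = 0.0099) and with the GC and length correction (0.026), as were STK39 in the former fit (0.0326) and WNK3 in the latter (0.03).

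Among 16 tested volume-regulated channels and osmosensors, 1 rose and 2 fell, or 18.8% called against 14.9% of all genes tested. The riser was TRPV2, a cation channel (0.96, adjusted p = 0.00955). Both that fell are cation channels as well. TRPV4, which opens on cell swelling and is known for osmosensing in chondrocytes, had 201, 202, 223 and 212 normalized counts in WNK2- Ctr and 86.7, 119, 65.7 and 108 in WNK2- Sor (log2 fold change -1.14 ± 0.17 SE, adjusted p = 3.46e-05). PIEZO2, a stretch-activated channel, had 2829, 3671, 4138 and 3724 normalized counts in WNK2- Ctr and 1788, 1587, 1563 and 1667 in WNK2- Sor (log2 fold change -1.12 ± 0.14 SE, adjusted p = 2.95e-06). In both genes the highest sorbitol library was below the lowest control.

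Collagen genes fell more often than they rose. Of 27 collagens tested, 10 fell and 1 rose, 23 had a fold change below 0, and the median log2 fold change was -0.44. COL1A1 (chr17:50183289-50201632, minus strand), a chain of the fibrillar collagen of bone, tendon and fibrocartilage, had 52106, 45408, 46910.4 and 46185 normalized counts in WNK2- Ctr and 16948, 19447, 15976 and 17969 in WNK2- Sor (log2 fold change -1.44 ± 0.13 SE, adjusted p = 1.96e-08). Each sorbitol library held fewer counts than any control. COL5A1, a chain that regulates fibril width, fell from 18418, 19405, 18658 and 18974 to 9700.2, 11071, 8146 and 9786 (log2 fold change -0.96 ± 0.12 SE, adjusted p = 3.04e-06). COL6A3, a chain of the microfibrils around chondrocytes, fell from 24325, 25954, 27821 and 29986 to 14398, 14463, 13913 and 15339 (log2 fold change -0.90 ± 0.12 SE, adjusted p = 5.64e-06), and COL3A1 from 1807, 1859.7, 2037 and 1840.1 to 1086, 1091, 999 and 1086 (log2 fold change -0.82 ± 0.09 SE, adjusted p = 1.30e-07). These genes have many bases of G and C (list median 61.1% of the transcript against 48.5% over all genes tested), and libraries differed in how counts followed GC content. With a correction for GC content and length 12 collagens fell, 2 rose and the median was -0.28, and 16 fell when the 8 WNK2- libraries were fitted alone.

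The genes of the basement membrane collagen, COL4A1 and COL4A2, lie head to head on chromosome 13 and share a promoter region, and they fell together. COL4A1 had 14242, 16149, 15622 and 15959.5 normalized counts in WNK2- Ctr and 6516, 7122, 6024 and 7139 in WNK2- Sor (log2 fold change -1.21 ± 0.09 SE, adjusted p = 2.89e-10), and COL4A2 had 16201, 17567, 15504 and 17389.8 normalized counts in WNK2- Ctr and 7101, 9584, 5995 and 8468 in WNK2- Sor (log2 fold change -1.10 ± 0.18 SE, adjusted p = 7.66e-05). Both pairs of groups were apart, COL4A2 with the wider spread. The promoter windows are printed to show what a single region gives to both genes: 250 bases before to 50 after each RefSeq start (GRCh38.p14), read 5′ to 3′ on each gene's own strand, with COL4A1 at chr13:110307108-110307407 on the minus strand and COL4A2 at chr13:110307034-110307333 on the plus strand. Capitals mark the 226 bases, chr13:110307108-110307333, that both windows hold. On the other strand they are the reverse complement, and 76.5% of them are G or C.

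COL4A1: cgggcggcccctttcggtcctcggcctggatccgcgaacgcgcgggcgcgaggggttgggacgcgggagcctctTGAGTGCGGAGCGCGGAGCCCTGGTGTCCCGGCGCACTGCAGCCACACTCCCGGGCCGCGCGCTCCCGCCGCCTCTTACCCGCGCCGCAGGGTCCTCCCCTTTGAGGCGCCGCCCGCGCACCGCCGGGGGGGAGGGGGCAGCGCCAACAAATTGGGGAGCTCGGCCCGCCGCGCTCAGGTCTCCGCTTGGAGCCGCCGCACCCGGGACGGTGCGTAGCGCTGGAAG
COL4A2: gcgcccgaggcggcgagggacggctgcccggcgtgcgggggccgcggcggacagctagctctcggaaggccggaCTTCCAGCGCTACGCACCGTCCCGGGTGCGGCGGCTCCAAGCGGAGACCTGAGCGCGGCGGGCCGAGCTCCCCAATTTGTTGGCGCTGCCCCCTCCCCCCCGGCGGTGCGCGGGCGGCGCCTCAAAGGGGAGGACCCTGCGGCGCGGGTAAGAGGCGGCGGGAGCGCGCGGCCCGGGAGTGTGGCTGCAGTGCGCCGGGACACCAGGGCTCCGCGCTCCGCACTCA

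Smaller falls were seen for COL5A2 (-0.38, adjusted p = 0.00144) and COL12A1 (-0.50, adjusted p = 0.0298), the latter lost in 6 of the 8 fits that left out 1 WNK2- library (adjusted p 0.0179 to 0.0898). COL14A1, a fibril-associated collagen of low count, was the only collagen called higher: it had 14.2, 20.1, 22.4 and 23.3 normalized counts in WNK2- Ctr and 51.2, 45.9, 52.2 and 69.2 in WNK2- Sor (log2 fold change 1.43 ± 0.23 SE, adjusted p = 6.62e-05). SERPINH1, the chaperone HSP47 that folds procollagen in the endoplasmic reticulum, fell with the collagens, from 5416, 5062, 4810.1 and 5055 to 2279, 2654, 2338 and 2574 (log2 fold change -1.05 ± 0.10 SE, adjusted p = 5.50e-08). Its groups did not overlap. COL1A2, the partner chain of COL1A1, had 6 to 11 raw counts in the 8 libraries and was not tested, so that the ratio of the chains cannot be read.

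Proteoglycans and other matrix glycoproteins showed the same direction. Of 27 tested, 10 fell and 2 rose, and the median log2 fold change was -0.36. FN1, fibronectin and the most abundant of them, had 174924, 202259, 216242 and 218252 normalized counts in WNK2- Ctr and 152884, 138950.0, 141708 and 153089 in WNK2- Sor (log2 fold change -0.47 ± 0.11 SE, adjusted p = 0.00485). SPARC, a collagen-binding protein, fell from 11238, 11029, 10759.8 and 10709.9 to 5474, 5618, 5280.2 and 5798 (log2 fold change -0.98 ± 0.09 SE, adjusted p = 9.04e-09). TGFBI, which links collagens to integrins, fell from 22355, 22294, 21776 and 22701 to 13749.7, 13729.7, 13894 and 13358 (log2 fold change -0.70 ± 0.07 SE, adjusted p = 1.53e-07), and POSTN, periostin, from 1322, 1673, 1852 and 1530.2 to 1179, 951, 1214 and 1154 (log2 fold change -0.50 ± 0.11 SE, adjusted p = 0.00308). None of these groups overlapped. CILP2 (log2 fold change -1.13, adjusted p = 0.0126) and HAPLN3 (-0.79, adjusted p = 0.000417), proteins of the cartilage matrix, were also lower. VCAN, the proteoglycan versican, was called higher from low counts, 2.84, 4.56, 4.31 and 10.8 against 13.7, 11.7, 19.3 and 18.7 (log2 fold change 1.42 ± 0.43 SE, adjusted p = 0.0232), and that call was lost in 5 of the 8 fits that left out 1 WNK2- library (adjusted p 0.00804 to 0.0885).

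The label of chondrocyte was checked against 16 markers, of which 12 had enough counts for a test. Both genes that define the cartilage matrix were low in the 8 WNK2- libraries, COL2A1 at 5 to 18 raw counts and ACAN at 4 to 22. COL2A1, the collagen of hyaline cartilage, had 4.74, 5.47, 6.03 and 8.33 normalized counts in WNK2- Ctr and 9.56, 15, 7.73 and 15.9 in WNK2- Sor (log2 fold change 0.94 ± 0.34 SE, adjusted p = 0.061). It was called with upper-quartile factors (adjusted p = 0.0481), with the GC and length correction (0.00828) and without WNK2- Sor replicate 3 (0.0393). ACAN, aggrecan, had a log2 fold change of -0.31, adjusted p = 0.727. COL9A2, a chain of the collagen that coats cartilage fibrils, was lower (-1.23, adjusted p = 0.0241), with a call lost in 5 of the 8 fits that left out 1 WNK2- library (adjusted p 0.0297 to 0.0857), and HAPLN1, the link protein that ties aggrecan to hyaluronan, was higher (0.38, adjusted p = 0.0452), with a call lost in 7 of the 8 fits that left out 1 WNK2- library (adjusted p 0.0412 to 0.163). The summed level of the 16 markers lay between 610.3 and 703 normalized counts in controls and between 619 and 659 with sorbitol, so that the groups overlapped. HAPLN1, which rose, gave more to that sum than any other marker (258 to 318 raw counts in WNK2- Ctr, 357 to 449 in WNK2- Sor). Of the 12 tested, 8 had a fold change below 0 and 4 above it. Their median log2 fold change was -0.35, with 1 called higher and 2 lower. The summed fibroblast markers, nearly all of it COL1A1, were 49379 to 55769 against 18400 to 21966; of 7 tested 3 fell, while FAP, fibroblast activation protein, rose (1.54, adjusted p = 2.11e-08) and PDGFRB, a growth factor receptor of mesenchymal cells, fell (-1.07, adjusted p = 4.08e-06). Endothelial markers summed to 1603 to 1724 and 1540 to 1990.1, with PECAM1 (1.21, adjusted p = 2.19e-06) the only 1 of 7 called. Of the leukocyte markers 3 of 8 were tested and 0 called, and PTPRC had 2 to 13 raw counts. Of the epithelial markers 5 of 8 were tested and 0 called. They summed to 17802 to 22812 normalized counts in controls and 14894 to 18420 with sorbitol, far above the chondrocyte sum. Most of this came from KRT8 (14137 to 15766 raw counts in WNK2- Ctr, 10346 to 14577 in WNK2- Sor) and KRT18 (7002 to 8255 and 5560 to 7530). The part of other cell types in the results was not tested beyond these counts.

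**Figure D3:**
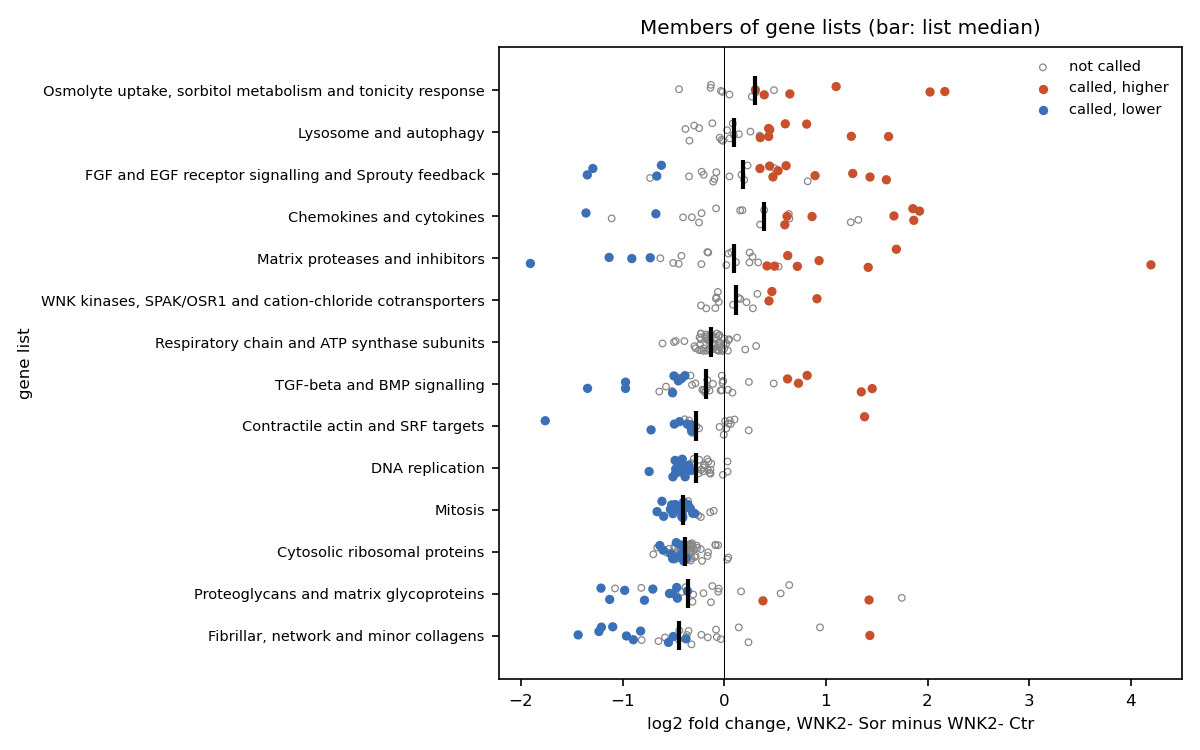
Log2 fold change (WNK2- Sor minus WNK2- Ctr) of each tested member of 14 gene lists, filled where called, with a bar at the list median. Collagens, matrix glycoproteins, ribosomal proteins and mitotic genes lie mostly left of 0, and the members of the osmolyte and lysosome lists that were called lie to the right.

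Matrix proteases and their inhibitors changed in both directions, 8 of 28 higher and 4 lower (median log2 fold change 0.09). MMP3 (chr11:102835801-102843803, minus strand), stromelysin-1, which cleaves proteoglycans and activates procollagenases, had the largest rise of any gene that the naming rule covers. It had 98.5, 89.4, 68.1 and 81.6 normalized counts in WNK2- Ctr and 1493, 1567, 1518 and 1619 in WNK2- Sor (log2 fold change 4.20 ± 0.19 SE, adjusted p = 5.02e-14), or 18.4 times as high. MMP9, a gelatinase, rose from 96.6, 89.4, 68.1 and 81.6 to 258, 313, 207 and 307 (log2 fold change 1.69 ± 0.20 SE, adjusted p = 7.02e-07). Every sorbitol library was above every control for both genes. Of the exon length of MMP9, 18.4% overlaps another gene.

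ADAMTS1, which cleaves aggrecan and versican, rose from 933, 1009.6, 978 and 1016 to 1934, 1985, 1667 and 1929 (log2 fold change 0.93 ± 0.09 SE, adjusted p = 3.48e-08), and ADAMTS9 rose from 21.8, 29.2, 32.8 and 22.5 to 74.4, 59.2, 69.6 and 81.3 (log2 fold change 1.42 ± 0.27 SE, adjusted p = 0.000661). PLAUR, the urokinase receptor that localises plasmin formation, rose as well (0.62, adjusted p = 9.44e-05). Proteases on the falling side were ADAMTS15, from 81.5, 88.5, 108 and 90.8 to 28.7, 15.8, 29 and 24.3 (log2 fold change -1.91 ± 0.25 SE, adjusted p = 6.13e-06), MMP11 (-1.13, adjusted p = 0.00297), HTRA1 (-0.91, adjusted p = 2.35e-07) and MMP2, from 2221, 2144, 1930.1 and 2140.0 to 1240.1, 1341, 1272 and 1236 (log2 fold change -0.73 ± 0.09 SE, adjusted p = 1.45e-06). All of these groups were apart. MMP13, the main collagenase of osteoarthritic cartilage, had 36.0, 56.5, 69.0 and 54.1 normalized counts in WNK2- Ctr and 56.0, 51.7, 45.4 and 69.2 in WNK2- Sor (log2 fold change 0.04 ± 0.18 SE, adjusted p = 0.92), and the groups overlapped. ADAMTS5, an aggrecanase, had a log2 fold change of -0.42, adjusted p = 0.353 and ADAMTS3 one of 0.02, adjusted p = 0.982, both from low counts.

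Inflammatory genes rose more often than they fell. Of 23 chemokines and cytokines tested, 7 rose and 2 fell (median log2 fold change 0.39). IL1B, interleukin-1 beta, had 734, 708, 667 and 715 normalized counts in WNK2- Ctr and 2500.0, 2552, 2539.6 and 2631 in WNK2- Sor (log2 fold change 1.86 ± 0.15 SE, adjusted p = 2.07e-09). CCL2, a chemokine for monocytes, had 122, 161, 138 and 120.0 normalized counts in WNK2- Ctr and 542, 393, 566 and 469 in WNK2- Sor (log2 fold change 1.86 ± 0.14 SE, adjusted p = 7.11e-10). Neither gene's groups overlapped. CSF2 (1.92, adjusted p = 0.00347) and CSF3 (1.67, adjusted p = 0.000148), growth factors for granulocytes and macrophages, rose from low counts, and so did the receptor gene IL6R (0.86, adjusted p = 0.0192). CXCL8, interleukin-8, rose from 716, 726, 697 and 776 to 1108, 985, 1311 and 1000.2 (log2 fold change 0.60 ± 0.12 SE, adjusted p = 0.00144) and IL6 from 391, 411, 369 and 389.8 to 623, 585, 638 and 549.7 (log2 fold change 0.62 ± 0.13 SE, adjusted p = 0.00171); 20.7% of the exon length of IL6 overlaps another gene. The 2 that fell are chemokines: CXCL12, from 59.7, 67.5, 64.7 and 58.3 to 26.6, 20.8, 27.0 and 22.4 (log2 fold change -1.36 ± 0.19 SE, adjusted p = 9.93e-06), and CXCL6 (-0.67, adjusted p = 0.00124). The call of IL6R was lost in 2 of the 8 fits that left out 1 WNK2- library (adjusted p up to 0.0778). TNFSF15, a cytokine of the tumour necrosis factor family, was among the 15 largest rises, from 102, 149, 159 and 105 to 814, 630.3, 669 and 664 (log2 fold change 2.43 ± 0.16 SE, adjusted p = 4.39e-11).

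The NF-kB system itself gave 2 rises and 2 falls among 17 genes tested, or 23.5% called against 14.9% of all genes tested. TNFAIP3, the feedback inhibitor A20, rose from 230.2, 183, 216 and 212 to 491, 519, 530.3 and 538 (log2 fold change 1.30 ± 0.10 SE, adjusted p = 6.89e-10), and NFKBIZ rose by less (0.64, adjusted p = 6.79e-06). Lower were TNFAIP2 (-0.46, adjusted p = 0.0384) and BCL3 (-0.63, adjusted p = 0.0491). The calls of TNFAIP2 and BCL3 were lost in 7 of the 8 fits that left out 1 WNK2- library (adjusted p up to 0.144). NFKB1, a subunit gene, had a log2 fold change of 0.01, adjusted p = 0.96. VCAM1, the adhesion molecule that cytokines induce through NF-kB in many cells, went the other way and had the largest fall of the genes the naming rule covers. It had 1043, 1165, 1314 and 991 normalized counts in WNK2- Ctr and 195, 131, 194 and 168 in WNK2- Sor (log2 fold change -2.71 ± 0.13 SE, adjusted p = 9.65e-14). The highest sorbitol library, at 195, lay far below the lowest control, at 991.

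The VCAM1 promoter is shown because the gene's direction differed from that of the cytokines. Its window (RefSeq, GRCh38.p14, chr1:100719492-100719791, plus strand, 250 bases before to 50 after the start) holds 1 match to the NF-kB consensus, which starts at base 189 of the window. It also holds 1 TATAAA, which starts at base 222, and both are in capitals. The consensus searched was GGGRNNYYCC, where R is A or G, Y is C or T and N is any base. Near matches outside it, such as gggtttcccc shortly before the first capitals, were not counted.

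VCAM1: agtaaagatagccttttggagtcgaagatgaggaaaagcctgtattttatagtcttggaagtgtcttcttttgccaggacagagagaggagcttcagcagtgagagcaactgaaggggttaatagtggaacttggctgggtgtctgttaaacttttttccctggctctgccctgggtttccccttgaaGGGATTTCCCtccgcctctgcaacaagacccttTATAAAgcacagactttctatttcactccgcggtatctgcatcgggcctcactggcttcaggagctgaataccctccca

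The NF-kB consensus, searched on both strands, was held by 13.2% of the windows of the genes tested, by 11.4% of those of the risen genes and by 16.5% of those of the fallen genes. TATAAA, searched on the coding strand, was held by 4.27% of the windows of the genes tested, by 78 of 953 risen genes (8.18%) and by 37 of 841 fallen genes (4.4%). TGANTCA, the AP-1 site and its own reverse complement, was held by 5.06%, 8.08% and 4.04%. Windows were found for 11445 of the genes tested, and a match describes the letters only. No window was found for MMP3.

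Genes of the cell cycle fell. Of 28 mitotic genes tested, 20 fell and 0 rose, with a median log2 fold change of -0.40 and all 28 below 0; of 34 DNA replication genes, 15 fell and 0 rose (median -0.28). The largest falls, -0.66 in mitotic and -0.74 in replication genes, were smaller than those of collagens (-1.44) and matrix glycoproteins (-1.21). The mitotic median, however, lay between that of the collagens (-0.44) and that of the matrix glycoproteins (-0.36). MKI67, the proliferation marker Ki-67, had 14446, 15931, 15918 and 16483 normalized counts in WNK2- Ctr and 11082, 10356, 10606 and 11402 in WNK2- Sor (log2 fold change -0.53 ± 0.14 SE, adjusted p = 0.00798). CCNA2, cyclin A2, fell from 3142, 2952, 3103 and 2997 to 1982, 1847, 2241 and 1995 (log2 fold change -0.60 ± 0.09 SE, adjusted p = 4.30e-05) and KIF20A, a mitotic kinesin, from 3552, 3469, 3268 and 3297 to 2063, 2072, 2291 and 2166 (log2 fold change -0.66 ± 0.07 SE, adjusted p = 4.67e-07). In these 3 genes no sorbitol library reached the level of a control. TOP2A (-0.52, adjusted p = 0.0095), CDK1 (-0.41, adjusted p = 0.00819), CCNB2 (-0.61, adjusted p = 0.00289), E2F2 (-0.74, adjusted p = 4.14e-05), POLD1 (-0.51, adjusted p = 0.00515) and RRM2 (-0.33, adjusted p = 0.00668) fell as well, RRM2 with 20.2% of its exon length shared with another gene. With a minimum change of 1.2-fold in the test, the calls of MKI67, TOP2A, CDK1, POLD1 and RRM2 were lost.

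CDKN1A, the cyclin-dependent kinase inhibitor p21, rose from 1547, 1362, 1291 and 1394 to 2337, 2866, 2476 and 2724 (log2 fold change 0.89 ± 0.16 SE, adjusted p = 0.000356), and FAS, a death receptor and target of p53, from 51.2, 56.5, 54.3 and 84.1 to 168, 103, 122 and 108 (log2 fold change 1.02 ± 0.22 SE, adjusted p = 0.00192). Over 21 p53 targets and cell cycle inhibitors tested, 4 rose and 3 fell, the others being XPC (0.77, adjusted p = 0.00143), ZMAT3 (0.68, adjusted p = 0.00251), CDKN1C (-0.73, adjusted p = 0.0054), PLK2 (-0.59, adjusted p = 4.24e-05) and CDKN1B (-0.53, adjusted p = 0.000141). Of the exon length of XPC, 30.4% overlaps another gene.

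Ribosomal protein genes lay below 0 in 68 of 70 tested, of which 11 fell and 0 rose (median log2 fold change -0.39), or 15.7% called against 14.9% of all genes tested. Their count depended on the fit: 34 fell with the correction for GC content and length and 61 fell when the 8 WNK2- libraries were fitted alone, while leaving out 1 WNK2- library gave 2 to 11. RPL11, a protein of the large subunit, had 10319, 9109.7, 8179.7 and 8911 normalized counts in WNK2- Ctr and 5098, 7239, 4912 and 6274 in WNK2- Sor (log2 fold change -0.63 ± 0.19 SE, adjusted p = 0.0248), and its call was lost in 3 of the 8 fits that left out 1 WNK2- library (adjusted p 0.0163 to 0.0884). Of 59 nuclear genes for the respiratory chain and ATP synthase, 0 were called in either direction and the median was -0.13; 6 fell with the GC and length correction. Of the 13 mitochondrially encoded respiratory chain genes 1 fell, MT-CO3 (-0.58, adjusted p = 0.00979).

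PRRX1, a homeobox factor of limb mesenchyme, was among the 15 largest rises. It had 94.7, 71.1, 110.3 and 88.3 normalized counts in WNK2- Ctr and 685, 623, 608 and 598 in WNK2- Sor (log2 fold change 2.78 ± 0.12 SE, adjusted p = 1.36e-14). SNAI2, a repressor of epithelial genes, rose from 317, 308, 315 and 329.9 to 556, 536, 640.5 and 549 (log2 fold change 0.84 ± 0.10 SE, adjusted p = 1.62e-06), whereas its relative SNAI1 fell from 1057, 839, 866 and 888 to 418, 553, 516 and 549.7 (log2 fold change -0.84 ± 0.18 SE, adjusted p = 0.00168). RUNX2, which drives chondrocyte hypertrophy, fell from 384, 439.6, 439 and 486 to 209.6, 238, 256 and 254 (log2 fold change -0.87 ± 0.12 SE, adjusted p = 5.64e-06), and RUNX3 (-0.58, adjusted p = 0.000478) and SOX4 (-0.70, adjusted p = 2.33e-05) were also lower. All of these groups were apart. Over 16 tested skeletal transcription factors 3 rose and 4 fell, the last being TWIST2, which rose (0.33, adjusted p = 0.0135). The call of TWIST2 was lost in 2 of the 8 fits that left out 1 WNK2- library (adjusted p up to 0.0581).

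Immediate early and Krüppel-like factors were split. EGR1, which growth factors induce within minutes, fell from 319, 305, 349 and 416 to 119, 95.0, 142 and 98.2 (log2 fold change -1.61 ± 0.23 SE, adjusted p = 1.80e-05), and KLF9, which glucocorticoids induce, from 799, 871, 1002 and 849 to 331, 313, 399.9 and 328 (log2 fold change -1.36 ± 0.10 SE, adjusted p = 2.58e-10). KLF6 rose from 1219, 1354, 1292 and 1289 to 2166, 2099, 2218 and 2098 (log2 fold change 0.74 ± 0.09 SE, adjusted p = 3.51e-06), and BATF3, an AP-1 family factor, rose from lower counts (1.02, adjusted p = 0.00172). Of 18 tested in that list, 4 rose and 2 fell, the other rises being FOSL2 (0.46, adjusted p = 0.00121) and MAFF (0.50, adjusted p = 0.0488). The call of MAFF was lost in 8 of the 8 fits that left out 1 WNK2- library (adjusted p up to 0.127). NOTCH3, a receptor of the Notch pathway, fell from 1146, 1127, 1328 and 1087 to 339, 361, 317 and 380.5 (log2 fold change -1.75 ± 0.21 SE, adjusted p = 1.17e-06).

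Of 20 clock genes tested, 2 rose and 0 fell, or 10% called against 14.9% of all genes tested. NPAS2, a paralog of CLOCK that pairs with BMAL1, rose from 259, 276, 259 and 249 to 793, 679, 748 and 703 (log2 fold change 1.49 ± 0.11 SE, adjusted p = 3.96e-10). BHLHE41, a clock repressor, was higher by less (0.67, adjusted p = 0.0207), and its call was lost in 3 of the 8 fits that left out 1 WNK2- library (adjusted p 0.0203 to 0.0812). BMAL1 (0.09, adjusted p = 0.666) and CLOCK (0.11, adjusted p = 0.841), the central activators, and PER1 (-0.33, adjusted p = 0.222) were not called. With the 8 WNK2- libraries fitted alone, PER1 was called lower (adjusted p = 0.0279).

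A list of 19 osteoarthritis-related genes took most of its members, though not PTCH1, from the study's text, where such genes were picked from these data, so that its count is not independent evidence; it does not hold every gene named there. Of 18 tested, 6 rose and 3 fell. Besides the members given above, BMP2 rose (0.82, adjusted p = 0.00425) and PTCH1, the Hedgehog receptor, fell (-0.50, adjusted p = 0.0142), while FGF2 (0.49, adjusted p = 0.125) and HIF1A (0.40, adjusted p = 0.375) were not called. FGF2 and HIF1A were called when the 8 WNK2- libraries were fitted alone (adjusted p = 0.00183 and 0.0341).

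BMP and TGF-beta genes were called lower in 8 and higher in 5 of 37 tested. BMP4 had 882, 768, 813 and 691 normalized counts in WNK2- Ctr and 384, 407, 408 and 409 in WNK2- Sor (log2 fold change -0.97 ± 0.11 SE, adjusted p = 4.74e-07), and SMAD6, an inhibitory SMAD that BMPs induce, had 1375, 1418, 1434 and 1357 normalized counts in WNK2- Ctr and 720.4, 739.5, 633 and 754 in WNK2- Sor (log2 fold change -0.97 ± 0.14 SE, adjusted p = 1.30e-05). The 4 sorbitol libraries of BMP4 lay within 30 counts of each other. GREM1, a secreted antagonist of BMPs, rose from 6451, 6153, 5945 and 6931 to 9528, 8986, 10753 and 9958 (log2 fold change 0.62 ± 0.11 SE, adjusted p = 0.000344), and TGFBR3, the co-receptor betaglycan, from 120.3, 111, 137 and 131 to 352, 332, 360.3 and 327 (log2 fold change 1.46 ± 0.20 SE, adjusted p = 8.72e-06). GDF6, a ligand of joint development, fell from low counts (-1.35, adjusted p = 0.00761). FSTL1 (0.73, adjusted p = 0.014) and BMP6 (1.35, adjusted p = 0.0158) were higher. The calls of FSTL1 and BMP6 were lost in 1 to 2 of the 8 fits that left out 1 WNK2- library (adjusted p up to 0.0669). Of 31 WNT genes, 3 rose and 4 fell, among them WNT5A, a noncanonical ligand, from 3833, 4409.8, 4606 and 4494 to 2742, 2268, 2623 and 2649 (log2 fold change -0.75 ± 0.10 SE, adjusted p = 3.73e-06), and FZD7, a WNT receptor (-0.72, adjusted p = 8.91e-05). The WNT antagonist SFRP1 rose (0.58, adjusted p = 1.14e-06), and LRP5, a co-receptor, and TCF7, a transcription factor of the pathway, fell (-0.44, adjusted p = 0.00615, and -0.47, adjusted p = 0.00742). The called share of the WNT genes was 22.6%, against 14.9% of all genes tested.

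Growth factor signalling gave 9 rises and 4 falls among 26 genes tested. Some ligands rose: FGF5 from 235, 225, 237 and 277 to 683, 572, 743 and 638 (log2 fold change 1.43 ± 0.19 SE, adjusted p = 8.11e-06), EREG (1.59, adjusted p = 0.00154) and AREG (1.26, adjusted p = 0.00132), which activate the EGF receptor. The ligand NRG1 was also called higher (0.45, adjusted p = 0.0149). Not called were the ligands FGF18 (0.82, adjusted p = 0.0664), FGF2 (0.49, adjusted p = 0.125), TGFA (0.20, adjusted p = 0.288) and HBEGF (0.17, adjusted p = 0.247). DUSP4, a phosphatase that ERK induces and that inactivates it, rose from 3304, 3144, 3263 and 3227 to 5749.8, 6120.4, 5963 and 6189 (log2 fold change 0.89 ± 0.11 SE, adjusted p = 1.41e-06). FGFR2 (-1.35, adjusted p = 0.0067), a receptor, and SPRY1 (-1.29, adjusted p = 0.000188), a feedback inhibitor, fell from low counts. SPRY2, a relative of SPRY1, went the other way (0.48, adjusted p = 0.00528), and SPRY4 was not called (0.23, adjusted p = 0.0615). Also called higher were DUSP5 (0.61, adjusted p = 3.54e-05), DUSP6 (0.53, adjusted p = 0.000358) and ERRFI1 (0.35, adjusted p = 0.00204).

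Integrins, the receptors through which cells hold the matrix, were called higher in 5 and lower in 2 of 12 tested. ITGA2, which with ITGB1 binds collagen, had 1183, 1460.2, 1545 and 1537 normalized counts in WNK2- Ctr and 5289.6, 4616, 5275 and 5331 in WNK2- Sor (log2 fold change 1.84 ± 0.18 SE, adjusted p = 4.74e-08). ITGA10, another collagen receptor and known from cartilage, rose from 45.5, 52.9, 52.6 and 50.8 to 159.8, 173, 141 and 135 (log2 fold change 1.59 ± 0.21 SE, adjusted p = 4.22e-06), while ITGA11, a collagen receptor of fibroblasts, fell from 779.8, 883, 857 and 781 to 461, 498, 438 and 517 (log2 fold change -0.79 ± 0.08 SE, adjusted p = 1.44e-07). Thus the 3 collagen-binding chains did not move in 1 direction, and none of their groups overlapped. A further collagen-binding chain, ITGA1 (0.64, adjusted p = 0.0198), and the laminin-binding ITGA6 (0.67, adjusted p = 0.0365) were higher, and ITGB5 was lower (-0.33, adjusted p = 0.00708). The calls of ITGA1 and ITGA6 were lost in 3 to 6 of the 8 fits that left out 1 WNK2- library (adjusted p up to 0.134). ITGB8, which with ITGAV releases active TGF-beta, rose from 382, 441, 449 and 508 to 1231, 962, 1246 and 1085 (log2 fold change 1.35 ± 0.17 SE, adjusted p = 3.58e-06).

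Contractile genes fell in 8 and rose in 1 of 23 tested. CNN1, calponin of smooth muscle, had 572, 534, 500 and 479 normalized counts in WNK2- Ctr and 129.7, 214, 119 and 151 in WNK2- Sor (log2 fold change -1.76 ± 0.24 SE, adjusted p = 1.06e-05), and ACTG2, an actin of smooth muscle, had a log2 fold change of -0.72, adjusted p = 0.00251. The 1 that rose was MYOCD, the co-activator of smooth muscle genes (1.38, adjusted p = 0.00126). ANKRD1, a target of YAP, rose from 3102, 2775, 2447 and 2746 to 5807, 5444, 5639 and 5859 (log2 fold change 1.04 ± 0.13 SE, adjusted p = 3.01e-06), and so did NT5E, the surface enzyme CD73 that makes adenosine (1.13, adjusted p = 4.99e-09). Over 21 YAP and TEAD genes 3 rose and 1 fell, or 19.0% called against 14.9% of all genes tested. The others were F3, tissue factor (0.46, adjusted p = 0.00214), and the factor TEAD2 (-0.89, adjusted p = 0.00224).

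Several genes of lipid synthesis fell and several lysosomal genes rose. SREBF1, the factor that drives fatty acid synthesis, had 2077, 2179.8, 2129 and 2112 normalized counts in WNK2- Ctr and 942, 1106, 853 and 917 in WNK2- Sor (log2 fold change -1.15 ± 0.16 SE, adjusted p = 8.87e-06), and SCD, which desaturates fatty acids, fell from 9697, 10914, 11505 and 10642 to 7099, 6907, 6702 and 6347 (log2 fold change -0.66 ± 0.08 SE, adjusted p = 1.91e-06). ACACA (-0.51, adjusted p = 0.00288), which makes malonyl-CoA, also fell, and ANGPTL4, which inhibits lipoprotein lipase, rose (1.26, adjusted p = 2.12e-05). Of 18 genes of fatty acid metabolism 3 rose and 5 fell; PLIN2, which coats lipid droplets (0.61, adjusted p = 0.00239), and CPT1A, which takes fatty acids into mitochondria (0.35, adjusted p = 0.000868), were the other rises, and FADS2, a desaturase, was lower (-0.45, adjusted p = 0.0135). Of 24 genes of cholesterol synthesis and uptake 0 rose and 4 fell, or 16.7% called against 14.9% of all genes tested. Among the 4 were TM7SF2 (-0.81, adjusted p = 0.0276), SREBF2 (-0.41, adjusted p = 0.00218) and INSIG1 (-0.31, adjusted p = 0.0095). The calls of FADS2 and TM7SF2 were lost in 1 to 4 of the 8 fits that left out 1 WNK2- library (adjusted p up to 0.0896). Of 23 lysosomal and autophagy genes 8 rose and 0 fell. CTSS, cathepsin S, had 129.8, 100.3, 142 and 139 normalized counts in WNK2- Ctr and 428, 368, 412 and 363 in WNK2- Sor (log2 fold change 1.62 ± 0.14 SE, adjusted p = 6.66e-09), and NPC1, which exports cholesterol from lysosomes, rose from 1962, 2022, 2263 and 2417 to 5307, 5072, 5185 and 5041 (log2 fold change 1.25 ± 0.12 SE, adjusted p = 3.47e-08). SQSTM1, the autophagy receptor p62, rose too (0.60, adjusted p = 0.000215). Part of SQSTM1 overlaps the exons of another gene (22% of its exon length in GENCODE 29), and without strand those reads cannot be assigned.

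Stress pathways other than tonicity were not called in 1 direction. NRF2 targets rose in 4 and fell in 3 of 22, with AKR1C1 (1.60, adjusted p = 6.25e-05) and ME1 (1.15, adjusted p = 3e-08), which make or use NADPH, on the rising side; AKR1C1 shares long stretches of sequence with AKR1C3 (1.14, adjusted p = 0.0015), and reads between them may be divided. HMOX1, heme oxygenase, was higher (0.52, adjusted p = 0.0235), and TKT (-0.63, adjusted p = 3.46e-05), TXNRD1 (-0.29, adjusted p = 0.00863) and ABCC1 (-0.30, adjusted p = 0.00359) fell. The call of HMOX1 was lost in 5 of the 8 fits that left out 1 WNK2- library (adjusted p up to 0.106).

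The unfolded protein response gave 1 rise and 5 falls of 21, with PDIA4, a protein disulfide isomerase, falling (-0.60, adjusted p = 6.39e-06) and DNAJB9, a co-chaperone, rising (0.47, adjusted p = 0.00123), and ATF4 targets 1 rise and 3 falls of 23, among them SLC7A5, the leucine transporter (-0.89, adjusted p = 6.18e-05), DDIT4, the mTORC1 inhibitor REDD1 (-0.92, adjusted p = 0.00431), of whose exon length 41.2% overlaps another gene, and PHGDH, which starts serine synthesis (-0.51, adjusted p = 0.00716). SLC38A1, a glutamine transporter, was higher (0.44, adjusted p = 0.048). Heat shock genes gave 1 rise, HSPB8 (0.59, adjusted p = 0.000523), and 1 fall, HSPD1 (-0.25, adjusted p = 0.0161), of 17, and interferon-induced genes 2 rises, OASL (1.15, adjusted p = 0.000974) and CMPK2 (0.64, adjusted p = 0.039), and 1 fall, MX2 (-0.45, adjusted p = 0.0371), of 22. The called share was 17.4% of the ATF4 targets, 11.8% of the heat shock genes and 13.6% of the interferon-induced genes, against 14.9% of all genes tested. The calls of SLC38A1, HSPD1, CMPK2 and MX2 were lost in 2 to 7 of the 8 fits that left out 1 WNK2- library (adjusted p up to 0.165).

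Genes of glycolysis and the hypoxia response moved both ways, 5 of 30 higher and 4 lower. EGLN3, an oxygen-sensing hydroxylase that HIF induces, rose (0.90, adjusted p = 0.00724), as did NDRG1 (0.53, adjusted p = 0.000128) and the hexokinase HK1 (0.47, adjusted p = 0.000516), while CA9, a carbonic anhydrase that HIF also induces and of whose exon length 38.5% overlaps another gene, fell (-1.19, adjusted p = 0.0149), as did P4HA1, which hydroxylates collagen (-0.55, adjusted p = 0.000357). HK2 (0.28, adjusted p = 0.0385) and EPAS1 (0.31, adjusted p = 0.0164) were higher and PDK1 (-0.41, adjusted p = 0.0342) and the glucose transporter SLC2A1 (-0.37, adjusted p = 0.0409) lower. The calls of CA9, HK2, EPAS1, PDK1 and SLC2A1 were lost in 2 to 7 of the 8 fits that left out 1 WNK2- library (adjusted p up to 0.127). Of 20 complement and MHC class I genes 1 rose, C3 (0.53, adjusted p = 0.000254), and 3 fell, C1R (-0.82, adjusted p = 7.88e-05) and the paralogs HLA-F (-0.96, adjusted p = 0.00631) and HLA-B (-0.52, adjusted p = 0.0191), between which reads may be divided; 28.5% of the exon length of HLA-F and 18.9% of that of HLA-B overlap another gene. The called share of the complement and MHC class I genes was 20%, against 14.9% of all genes tested. The call of HLA-B was lost in 3 of the 8 fits that left out 1 WNK2- library (adjusted p up to 0.0653).

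In the prostaglandin pathway 2 rose and 3 fell of 13. PTGS2, cyclooxygenase-2, had 423, 577, 707 and 636 normalized counts in WNK2- Ctr and 862, 726, 889.7 and 785 in WNK2- Sor (log2 fold change 0.48 ± 0.15 SE, adjusted p = 0.0366), a call lost in 6 of the 8 fits that left out 1 WNK2- library (adjusted p 0.0229 to 0.176). PTGES, which makes prostaglandin E2, fell (-1.15, adjusted p = 1.90e-05), as did its importer SLCO2A1 (-1.42, adjusted p = 1.41e-06) and its receptor PTGER2 (-0.99, adjusted p = 2.30e-05). In the hyaluronan list 2 rose and 1 fell of 12, among them CD44, the hyaluronan receptor (0.27, adjusted p = 0.032). The call of CD44 was lost in 7 of the 8 fits that left out 1 WNK2- library (adjusted p up to 0.0931). HAS2, which makes hyaluronan, fell from 256, 282, 331 and 309.9 to 194, 142, 176 and 175 (log2 fold change -0.78 ± 0.12 SE, adjusted p = 3.18e-05), and CEMIP, which breaks it down, rose from 27.5, 48.3, 36.2 and 50.8 to 98.3, 102, 95.6 and 110.3 (log2 fold change 1.31 ± 0.27 SE, adjusted p = 0.00123).

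The remaining genes of the 15 largest rises and 15 largest falls have no shared list. ZNF114, a zinc finger gene, had 47.4, 50.2, 41.4 and 43.3 normalized counts in WNK2- Ctr and 705, 660.3, 533 and 657 in WNK2- Sor (log2 fold change 3.81 ± 0.18 SE, adjusted p = 1.20e-13). ESM1, endocan, a secreted proteoglycan, had 304, 341, 267 and 317 normalized counts in WNK2- Ctr and 1881, 1782, 1857 and 1789 in WNK2- Sor (log2 fold change 2.57 ± 0.15 SE, adjusted p = 6.78e-12). Both sets of groups were far apart. LINC02009 (3.71, adjusted p = 1.20e-13), LINC03061 (3.56, adjusted p = 1.98e-10), MYH15 (2.81, adjusted p = 1.26e-10), MYCT1 (2.44, adjusted p = 2.06e-09), ACP7 (2.23, adjusted p = 3.37e-08), VEPH1 (2.23, adjusted p = 2.94e-06), LINC00882 (2.13, adjusted p = 1.79e-06) and NEURL1 (2.09, adjusted p = 1.33e-07) complete the rises. Among the falls MGAT3, which adds the bisecting N-acetylglucosamine to glycans, had 298, 281, 284 and 286 normalized counts in WNK2- Ctr and 67.6, 79.2, 80.2 and 72.0 in WNK2- Sor (log2 fold change -1.94 ± 0.18 SE, adjusted p = 2.12e-08). VWA1 (-1.73, adjusted p = 0.000145), a matrix protein, KCTD12 (-1.67, adjusted p = 9.02e-09), CYP1B1 (-1.58, adjusted p = 1.19e-08), DHRS3 (-1.48, adjusted p = 1.26e-10), which reduces retinal, SAMD11 (-1.47, adjusted p = 0.00139), FHDC1 (-1.46, adjusted p = 8.64e-08) and the imprinted gene MEST (-1.35, adjusted p = 1.06e-09), of whose exon length 27.4% overlaps another gene, complete them.

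The response of the WNK2- cells was next set beside that of wild-type cells, to ask whether the effect of sorbitol differed by genotype. The test was the interaction, the WNK2- change minus the wild-type change, in the same fit. It was called for 1436 of 16600 genes (8.65%), and for 686 of the 2473 genes called in WNK2- cells. With WNK2 trans Ctr in place of the libraries labelled WT Ctr, a choice made after the WNK2 counts had been seen, 562 genes were called. Wild-type changes below are given against WT Ctr first and then, as an alternative chosen at the same point, against WNK2 trans Ctr. The share of all genes called in wild type is not reported here, so that no excess is read from wild-type calls in a list.

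SLC6A12, SGK1 and AKR1B1 rose in both genotypes, with either isotonic group. Over the 15 osmolyte genes the wild-type calls were 5 higher and 4 lower against WT Ctr, and 3 higher and 3 lower against WNK2 trans Ctr. SLC6A12 had a wild-type log2 fold change of 2.28 ± 0.26 SE, adjusted p = 7.90e-07, or 1.33, adjusted p = 0.000318, and an interaction of -0.26 ± 0.34 SE, adjusted p = 0.704, against WT Ctr, and 0.70, adjusted p = 0.338, against WNK2 trans Ctr. SGK1 (wild-type changes 0.86 and 0.51) had an interaction of -0.22 ± 0.11 SE, adjusted p = 0.236, against WT Ctr, and 0.13, adjusted p = 0.678, against WNK2 trans Ctr. AKR1B1 (wild-type changes 1.50 and 2.14) had one of 0.67 ± 0.16 SE, adjusted p = 0.00729, against WT Ctr, and 0.03, adjusted p = 0.969, against WNK2 trans Ctr, so that its call rested on the isotonic group used. The mesenchymal factor PRRX1 (wild-type changes 2.45 and 2.73) had one of 0.33 ± 0.16 SE, adjusted p = 0.204, against WT Ctr, and 0.05, adjusted p = 0.942, against WNK2 trans Ctr. KIF20A had a wild-type change of -0.73 ± 0.07 SE, adjusted p = 1.69e-07, or -0.20, adjusted p = 0.0789, against WNK2 trans Ctr, and an interaction of 0.07 ± 0.10 SE, adjusted p = 0.755, against WT Ctr, and -0.47, adjusted p = 0.00947, against WNK2 trans Ctr. An interaction that is not called does not show that the responses were equal.

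The wild-type direction of the collagens turned with the isotonic group. Over the 27 collagens the wild-type median was 0.27 against WT Ctr, with 10 called higher and 0 lower, and -0.25 against WNK2 trans Ctr, with 2 higher and 10 lower. Against WT Ctr 15 interactions were called, 14 of them below 0; against WNK2 trans Ctr 4 were called, 3 of them also among the 15 and with the same sign. COL1A1 had a wild-type change of 0.04 ± 0.13 SE, adjusted p = 0.87, or -0.69, adjusted p = 0.000588, against WNK2 trans Ctr, and an interaction of -1.48 ± 0.19 SE, adjusted p = 8.05e-06, against WT Ctr, and -0.75, adjusted p = 0.0184, against WNK2 trans Ctr. COL6A3 had an interaction of -1.40 ± 0.17 SE, adjusted p = 3.86e-06, against WT Ctr, and -1.05, adjusted p = 0.000307, against WNK2 trans Ctr. For COL4A1 it was -1.21 ± 0.12 SE, adjusted p = 3.45e-07, against WT Ctr, and -0.38, adjusted p = 0.0915, against WNK2 trans Ctr. For COL4A2 it was -1.32 ± 0.25 SE, adjusted p = 0.00124, against WT Ctr, and -0.62, adjusted p = 0.221, against WNK2 trans Ctr, and for COL3A1 -1.44 ± 0.12 SE, adjusted p = 1.64e-08, against WT Ctr, and -0.21, adjusted p = 0.465, against WNK2 trans Ctr. The basement membrane and COL3A1 interactions thus rested on the libraries labelled WT Ctr.

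Several other genes were called for an interaction against either isotonic group. VCAM1 had a wild-type change of -0.45 ± 0.12 SE, adjusted p = 0.0064, or -1.02, adjusted p = 7.62e-07, against WNK2 trans Ctr, and an interaction of -2.26 ± 0.17 SE, adjusted p = 2.61e-09, against WT Ctr, and -1.70, adjusted p = 4.32e-07, against WNK2 trans Ctr. ZNF114 had one of -0.10 ± 0.19 SE, adjusted p = 0.746, or -0.33, adjusted p = 0.244, against WNK2 trans Ctr, and an interaction of 3.91 ± 0.26 SE, adjusted p = 3.66e-10, against WT Ctr, and 4.14, adjusted p = 1.23e-10, against WNK2 trans Ctr. KLF9 had a wild-type change of 0.72 ± 0.09 SE, adjusted p = 5.27e-06, against WT Ctr, opposite in sign to its fall in WNK2- cells. Against WNK2 trans Ctr its change was -0.27, adjusted p = 0.0519, so that the opposite sign rested on WT Ctr, and its interaction was -2.08 ± 0.14 SE, adjusted p = 3.08e-10, against WT Ctr, and -1.09, adjusted p = 1.03e-05, against WNK2 trans Ctr. In these 3 genes the WNK2- change lay below or above the wild-type change by more than both errors.

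BMP4, SMAD6, WNT5A and ITGA11 were called lower in WNK2- cells and higher in WT Sor than in WT Ctr, and their interactions were called against both isotonic groups. Against WNK2 trans Ctr the wild-type rise was called for BMP4 (0.90, adjusted p = 3.30e-06) and not for SMAD6 (0.16, adjusted p = 0.499), WNT5A (0.23, adjusted p = 0.111) or ITGA11 (-0.02, adjusted p = 0.898). The interactions against WT Ctr and against WNK2 trans Ctr, in that order, were -1.72 and -1.87 for BMP4, -1.84 and -1.13 for SMAD6, -1.53 and -0.99 for WNT5A and -2.06 and -0.77 for ITGA11. Called against both were also CCL2 (1.75 and 1.23), TNFAIP3 (0.95 and 1.01), SREBF1 (-1.46 and -1.42) and PIEZO2 (-1.41 and -0.99). CXCL8 changed sign: its wild-type change was -1.20 against WT Ctr and 1.30 against WNK2 trans Ctr, and its interaction was 1.80 ± 0.18 SE, adjusted p = 2.77e-07, against WT Ctr, and -0.70, adjusted p = 0.0265, against WNK2 trans Ctr. MMP3 (wild-type changes 2.09 and 2.43) had an interaction of 2.11 ± 0.51 SE, adjusted p = 0.00989, against WT Ctr, and 1.77, adjusted p = 0.0672, against WNK2 trans Ctr, from only 2.41 to 7.57 normalized counts in WT Ctr.

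**Figure D4:**
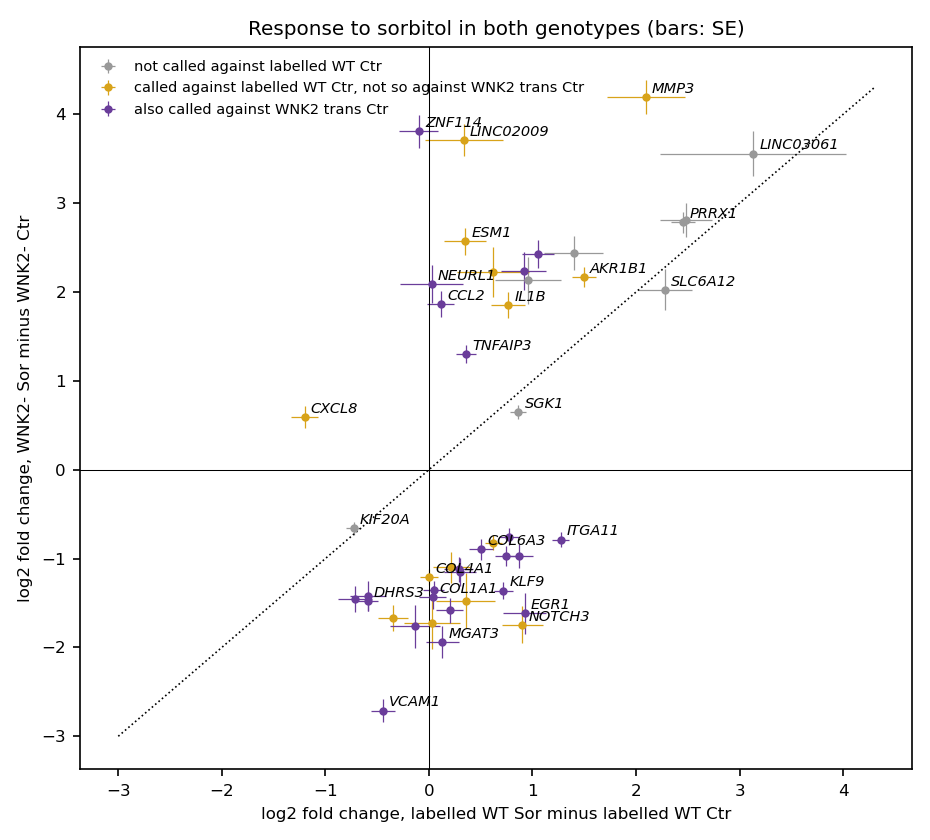
For 46 genes, the log2 fold change of WNK2- Sor over WNK2- Ctr (vertical) against that of WT Sor over WT Ctr as labelled (horizontal), with bars of 1 SE and a dotted line where both are equal. PRRX1, SLC6A12 and SGK1 lie near the line; ZNF114 and NEURL1 lie far above 0 for WNK2- cells and near 0 for wild type, and KLF9, EGR1 and ITGA11 lie in the lower right. The horizontal axis rests on WT Ctr: against WNK2 trans Ctr the wild-type changes were -0.27 for KLF9, 0.46 for EGR1 and -0.02 for ITGA11.

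Fold changes in WNK2- cells followed GC content to a small degree. With the genes in 10 bins of equal number, the median log2 fold change was 0.04 in the bin of lowest GC content and -0.10 in that of the highest, and risen genes had a median GC content of 46.7% against 51.1% in fallen genes. With a correction for GC content and length 3894 genes were called, 2378 of the 2473 calls remained among them and 0 changed sign. The cause of the relation was not tested.

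**Figure D5:**
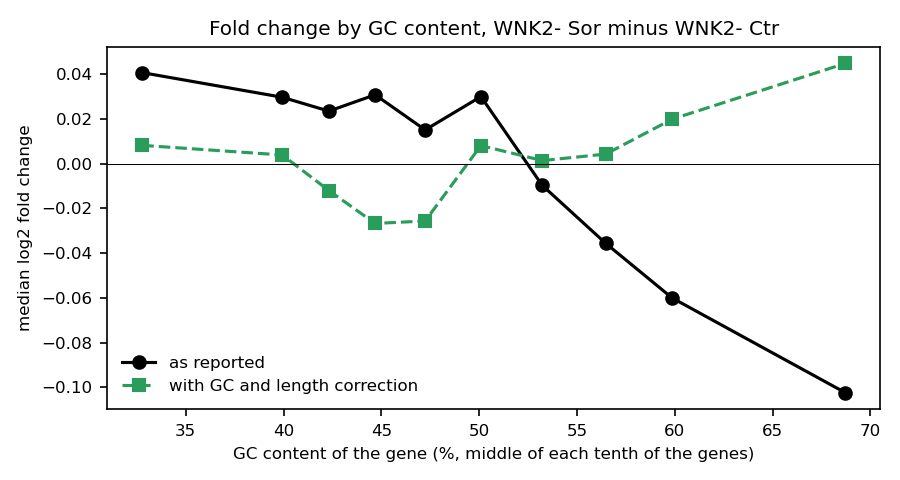
Median log2 fold change (WNK2- Sor minus WNK2- Ctr) in 10 bins of the genes by GC content, as reported and with the GC and length correction. The reported medians run from 0.04 to -0.10 and the corrected ones stay between -0.03 and 0.04.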

How the data were processed

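RNA of T/C-28a2 cells was sequenced from poly(A)-enriched libraries; whether strand was used in counting is not given in the sources used here. The authors deposited unnormalized read counts for each Ensembl gene; the submitters' processing notes list FastQC 0.11.9, HISAT2 2.2.1, HTSeq 2.0.2, DESeq2 1.38.3 and GRCh38. Here R 4.3.3 with edgeR 4.0.16, limma 3.58.1 and DESeq2 1.42.0 was used. Genes passing filterByExpr (minimum count 10, minimum total 15) were scaled by TMM and fitted as 6 group means over all 24 libraries with the quasi-likelihood test; p-values were adjusted by Benjamini-Hochberg over all genes tested, with a threshold of 0.05. The SE was the absolute log2 fold change over the square root of F. Normalized counts are counts per effective library size times the mean effective size of the 24 libraries. Positions follow GENCODE 29 (GRCh38).

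In simulated counts for the WNK2- comparison (16187 genes tested), 83% of 200 changed genes were recovered (48% at 1.5-fold, 88% at 2-fold) with 4.05% false calls. These counts were drawn for each gene independently, with the spread that the fit itself had estimated. They held no deviation of single libraries with GC content and far fewer changed genes than were called, so that the rates need not hold for the real libraries. Intervals and tests cover the spread of these libraries only.

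Members and gene lists were chosen with earlier results of these data known. Genes named are the 15 largest rises and falls among called genes with a symbol, a mean log2 CPM of at least 3 over the 8 libraries and no overlap; up to 6 called members a list; and all WNK, osteoarthritis and clock genes of the lists, of which not all are printed; a few further called members were named after their values were seen, and some genes are not reported here. Alternatives were RLE and upper-quartile factors, DESeq2, limma-voom, other filters, the compared libraries alone, a replicate block, leaving out each library, a minimum fold of 1.2 and a GC and length correction.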

Additional observations from a re-analysis of the deposited data

Results flagged for a closer look

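In 25 of the 446 groups of 4 WNK2- libraries checked (5.61%), 1 for each of the 223 tested genes and 2 conditions, 1 library stood apart from the other 3 beyond Dixon's 95% limit; chance flags about 1 group in 20. The normalized counts were, against the range of the other 3, for SLC6A6 (WNK2- Ctr replicate 1, 1629.7 against 1837 to 1858), COL3A1 (WNK2- Sor replicate 3, 999 against 1086 to 1091), ADAMTS3 (WNK2- Ctr replicate 3, 15.5 against 6.63 to 7.50), HIF1A (WNK2- Ctr replicate 1, 192 against 312 to 334), FAS (WNK2- Ctr replicate 4, 84.1 against 51.2 to 56.5), BMAL1 (WNK2- Sor replicate 1, 409 against 322 to 330.4), BMP4 (WNK2- Sor replicate 1, 384 against 407 to 409), FZD7 (WNK2- Sor replicate 4, 430.0 against 326 to 339), ITGA2 (WNK2- Sor replicate 2, 4616 against 5275 to 5331), NT5E (WNK2- Sor replicate 2, 1319 against 1556 to 1579), DDIT4 (WNK2- Ctr replicate 1, 647 against 589 to 596) and MYCT1 (WNK2- Ctr replicate 2, 117 against 97.5 to 100.0), and for RIPOR2 (WNK2- Sor replicate 1, 23.2 against 15 to 15.9), PRRX2 (WNK2- Sor replicate 2, 11.7 against 15.9 to 16.4), GDF6 (WNK2- Sor replicate 4, 6.54 against 16.4 to 18.4), BATF3 (WNK2- Ctr replicate 4, 56.6 against 69.8 to 71.1), TNFAIP2 (WNK2- Ctr replicate 1, 3089.8 against 2807 to 2837), HSPD1 (WNK2- Sor replicate 3, 18428 against 16431 to 16505), PHGDH (WNK2- Ctr replicate 1, 5619 against 4899 to 4942), TCF7 (WNK2- Ctr replicate 1, 385 against 297 to 309), INSIG1 (WNK2- Ctr replicate 3, 1965 against 1803 to 1819.6), TWIST2 (WNK2- Ctr replicate 4, 1055 against 1150.1 to 1157), PDK1 (WNK2- Sor replicate 1, 336 against 283 to 292), ITGA6 (WNK2- Sor replicate 1, 331 against 301 to 306) and IL6R (WNK2- Ctr replicate 2, 54.7 against 69.8 to 71.1).

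The response to sorbitol differed between genotypes for 38 of the 46 genes whose interaction is given: the 30 largest changes and 16 chosen after their values were seen. That choice makes a high count likely and nothing is read from it; over all genes tested the interaction was called for 8.65%. The interactions (log2, WNK2- change minus wild-type change) that were also called with the same sign against WNK2 trans Ctr, 24 genes, were EGR1 -2.54, VCAM1 -2.26, KLF9 -2.08, MGAT3 -2.07, ITGA11 -2.06, SMAD6 -1.84, CYP1B1 -1.78, BMP4 -1.72, CNN1 -1.63, WNT5A -1.53, COL1A1 -1.48, SREBF1 -1.46, PIEZO2 -1.41, MEST -1.40, COL6A3 -1.40, DHRS3 -0.89, SLCO2A1 -0.83, FHDC1 -0.74, TNFAIP3 0.95, ACP7 1.32, TNFSF15 1.38, CCL2 1.75, NEURL1 2.07 and ZNF114 3.91. Those called only against the libraries labelled WT Ctr were NOTCH3 -2.64, SAMD11 -1.83, VWA1 -1.76, COL3A1 -1.44, KCTD12 -1.33, COL4A2 -1.32, COL4A1 -1.21, AKR1B1 0.67, IL1B 1.09, VEPH1 1.61, MMP3 2.11, ESM1 2.22 and LINC02009 3.37. The interaction of CXCL8 was 1.80 and took the opposite sign against WNK2 trans Ctr. The calls of SLCO2A1 (adjusted p = 0.0315) and FHDC1 (0.0348) were each lost in 11 of the 16 fits that left out 1 library, with adjusted p up to 0.0728 and 0.0742, and in both also with a minimum change of 1.2-fold; that of FHDC1 was lost without the filter too. The call of VEPH1 was lost in 5 of those 16 fits and with the minimum change, and that of MMP3 without WT Ctr replicate 3 (adjusted p = 0.0759) and with limma-voom. What sets these responses apart was not tested.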

How the results depend on the processing

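The count of 2473 genes called (1370 higher, 1103 lower) stayed within 1.5 times under RLE and upper-quartile factors, DESeq2, limma-voom, both other filters and the replicate block over all libraries, with 2060 to 2855 genes. It was 4824 (2431 and 2393) when the 8 WNK2- libraries were fitted alone, 4444 (2246 and 2198) with the replicate block in that fit, 3894 (1885 lower) with the GC and length correction and 1144 (748 and 396) with a minimum change of 1.2-fold. Leaving out 1 WNK2- library gave 1840 to 2155 calls, 1029 to 1194 higher and 811 to 961 lower. Upper-quartile factors raised the share of higher calls from 55.4% to 64.5%. The 1436 interactions became 636 with the minimum change, 2228 with the GC and length correction, 562 with WNK2 trans Ctr in place of WT Ctr, and 849 to 1908 when 1 library was left out. For the library totals, WNK2- Sor against WNK2- Ctr, the difference of means ranged from -1589810 to 772209 reads when 1 library was left out, turning sign.

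Deviations of same-numbered WNK2- libraries correlated at -0.56, 0.05, 0.32 and 0.10, and over all 24 libraries the replicate block gave 2350 calls and 1323 interactions. Deviations also followed GC content (rank correlation 0.31 in WNK2- Ctr replicate 1 and -0.31 in WNK2- Sor replicate 1). The correlations between same-numbered libraries therefore cannot decide whether these were handled together.

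Of 202 called genes examined, 145 kept their call under each of the 19 alternatives in which they were tested, and 57 lost it under at least 1. Direction turned only for genes not called, as log2 fold change under the alternatives in question: SLC6A6 (0.027, 0.014, 0.018, -0.072 to 0.0058 with 1 library left out), SORD (0.012, -0.076 to 0.018 with 1 library left out), WNK2 (0.011), MMP13 (-0.025, -0.12 to 0.17 with 1 library left out), ADAMTS3 (-0.0024, -0.15 to 0.38 with 1 library left out), NFKB1 (-0.015, -0.022 to 0.026 with 1 library left out), BMAL1 (-0.0024 to 0.12 with 1 library left out) and CLOCK (-0.040 to 0.19 with 1 library left out). Interactions turned for SLC6A12 (0.70, -0.51 to 0.026 with 1 library left out), SGK1 (0.13), CXCL8 (-0.70), KIF20A (-0.059, -0.47), LINC03061 (-0.46, -0.093 to 0.80 with 1 library left out), MYH15 (-1.26, -0.063 to 0.51 with 1 library left out), ESM1 (-0.55), MYCT1 (-0.10) and VEPH1 (-0.16). The cause was not tested. To be tested, a gene had to reach about 10 counts, at a typical depth, in at least 4 of the 24 libraries; some tested genes had fewer in the WNK2- libraries.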

Other observations

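Large changes also lay outside the naming rule, chosen here after their values were seen. LINC02582, a long noncoding RNA, had 15.2, 13.7, 12.9 and 15.8 normalized counts in WNK2- Ctr and 1325, 1089, 1165 and 1207 in WNK2- Sor (log2 fold change 6.36 ± 0.22 SE, adjusted p = 1.36e-14). PRSS35, a serine protease homologue, had 5.68, 27.4, 17.2 and 20.8 normalized counts in WNK2- Ctr and 537, 442, 458 and 479 in WNK2- Sor (log2 fold change 4.73 ± 0.25 SE, adjusted p = 5.90e-13), and UCA1, a noncoding RNA, rose from 0.947, 1.82, 4.31 and 4.17 to 72.4, 61.7, 70.5 and 82.3 (log2 fold change 4.59 ± 0.57 SE, adjusted p = 1.26e-05). All 3 lay under the mean log2 CPM that the rule asks for, through their low control counts.

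SCG2, a granin of secretory granules, fell from 262, 300.1, 292 and 291 to 54.6, 53.4, 64.7 and 50.5 (log2 fold change -2.36 ± 0.12 SE, adjusted p = 2.12e-13), and RIPOR2 from 76.7, 71.1, 109 and 79.1 to 23.2, 15, 15.5 and 15.9 (log2 fold change -2.25 ± 0.26 SE, adjusted p = 9.46e-07). PRRX2 fell from 59.7, 62.9, 69.8 and 38.3 to 16.4, 11.7, 16.4 and 15.9 (log2 fold change -1.92 ± 0.26 SE, adjusted p = 8e-06), opposite to its paralog PRRX1. SCNN1A, a subunit of the sodium channel that NEDD4L removes, fell from 48.3, 38.3, 52.6 and 40.0 to 17.8, 24.2, 14.5 and 13.1 (log2 fold change -1.35 ± 0.21 SE, adjusted p = 6.18e-05), and WNT6 from 70.1, 73.9, 82.8 and 53.3 to 6.83, 23.3, 15.5 and 23.4 (log2 fold change -2.05 ± 0.39 SE, adjusted p = 0.000536).

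The raw counts of MMP3 and MMP9 were equal in WNK2- Ctr replicates 2, 3 and 4 (98, 79 and 98). Among 1904 genes with a mean of 50 to 150 counts in these 3 libraries, 11 pairs had equal counts in all 3.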
